A study of Mus musculus with 56 samples.

Results

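Tcf7, Lef1, Bach2, Klf2, Il7r, S1pr1, Foxp1, Id3 and Foxo1 are genes of quiescence, stemness and recirculation that naive and memory T cells use, and their RNA was measured here in helper T cells that lacked an enzyme of polyamine synthesis or of hypusine synthesis. They were picked by name, by matching the Ensembl identifiers of 2 count tables to mouse symbols, and are 9 of the 47937 genes listed. A naive T cell circulates between blood and lymph nodes and divides rarely until it meets its antigen. TCF-1 (the product of Tcf7) and LEF-1 are related DNA-binding factors that keep T cells able to renew, BACH2 holds back effector genes, and FOXO1, which is shut out of the nucleus by PI3K and AKT signals after activation, drives Klf2, Il7r and other genes of quiet cells. KLF2 in turn drives S1pr1, whose product is the receptor that lets T cells leave lymphoid organs, and Il7r encodes the receptor chain for the survival cytokine IL-7. Most of these RNAs fall when a T cell is activated. All cells measured here had been activated, so that the values show what remained of this group in effector cultures.

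CD4+ T cells of C57BL/6 mice about 6 to 10 weeks old were isolated from spleen and lymph nodes by negative selection. The methods of the study describe them as naive cells. They were activated with antibodies to CD3 and CD28 in the presence of IL-2, polarised, and analysed on day 4. TH1 cultures received IL-12 and anti-IL-4. TH2 cultures received IL-4 and anti-IFN-γ, TH17 cultures IL-6, TGF-β, IL-1β, anti-IFN-γ and anti-IL-4, and Treg cultures TGF-β, anti-IFN-γ and anti-IL-4. In the libraries labelled Odc-/-, a Cre recombinase under the CD4 promoter removed floxed exons of Odc, which encodes ornithine decarboxylase, the entry enzyme of polyamine synthesis. In those labelled Dohh-/- it removed floxed exons of Dohh, whose product completes hypusine, the modified lysine of the translation factor eIF5A. The Cre acts in the thymus, so the cells had lacked the gene before activation, and CD8+ T cells of these mice lack it as well. WT controls were littermates without Cre, and whether they carried floxed alleles is not given in the sources used here.

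The Odc table held 16 WT libraries and 15 labelled Odc-/-, which are 4 per group except for 3 TH2 libraries labelled Odc-/- (replicate 1 of that group was not analysed here). The Dohh table held 12 WT libraries and 12 labelled Dohh-/-, 3 per group. Total counts per library ran from 5905374 to 9145214 for Odc and from 6572148 to 12576933 for Dohh. Levels are given in CPM, which are counts scaled to a library of 1000000, and 3 counts correspond to between 0.226 and 0.499 CPM. All 9 genes passed the filter on low counts in both tables. Counts of Odc1 and Dohh covered all exons, those left in place included, and did not check the labels: Odc1 ranged from 424 to 679.8 CPM in libraries labelled Odc-/- and from 357 to 859.9 CPM in their WT controls, and Dohh from 45.2 to 148 CPM in libraries labelled Dohh-/- and from 31.5 to 45.9 CPM in WT.

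RNA of marker genes of cells other than CD4+ T cells moved with genotype. The summed level of 4 gamma-delta T cell markers was 7.54 to 15.5 CPM in WT Treg libraries of the Odc table and 248 to 331 CPM in those labelled Odc-/-, and 17.0 to 36.9 against 681 to 884 CPM in the Dohh table, with 3 or 4 of the 4 markers called higher in every comparison. Of 8 mast cell and basophil markers, 6 to 8 were called higher in every comparison. The sum of 9 B cell markers was 53.8 to 127 CPM in WT TH2 libraries of the Odc table and 359 to 599 CPM in labelled ones, with 7 of 9 called higher, and 8 of 9 were called higher in TH1 and Treg cells. In TH17 cells labelled Odc-/-, 1 was higher and 1 lower, and of the 7 tested for Dohh, 0 to 3 were higher and 1 lower in each subset, with the sum lower in TH1 libraries (18.7 to 26.0 CPM in WT and 8.59 to 15.8 CPM in labelled ones). The sum of 6 CD8+ T or NK cell markers in the Dohh table was 40.4 to 58.4 CPM in WT Treg libraries and 482 to 566 CPM in labelled ones. Of the 5 tested there, 3 were called higher. Over all comparisons 1 to 5 CD8+ T or NK cell markers were called higher and at most 1 lower. The sum of 8 T cell markers (Cd3d, Cd3e, Cd3g, Cd4, Cd5, Cd2, Lck and Trac) did not overlap in the Dohh table in any subset, for example 4005 to 4553 CPM in WT and 1646 to 2325 CPM in labelled Dohh-/- TH2 libraries, with 4 of the 8 genes called lower in each. For Odc it did not overlap in TH2 libraries (3436 to 3882 against 1989 to 2318 CPM, 4 of 8 called lower) and in TH1 libraries (3703 to 4471 against 2768 to 3449.9 CPM, none called). Erythroid cell and platelet markers were higher too, with 1 or 2 of the 2 tested for Odc and 3 or 4 of the 4 tested for Dohh called higher. The sum of the 6 listed was 0.231 to 0.878 CPM in WT and 37.2 to 378 CPM in labelled TH17 libraries of the Dohh table. Of 3 stromal and endothelial markers tested, 1 or 2 were called lower in each subset of the Odc table, with 1 higher in TH2 and in Treg cells. The Treg sum of the 5 listed was 89.5 to 95.2 CPM in WT and 19.2 to 31.1 CPM in labelled libraries of that table. In the Dohh table, 1 or 2 were called higher in each subset, with 1 lower in TH2 cells. Of 7 myeloid markers, 6 were tested in each table. In TH17 and Treg cells 5 and 4 were called higher for Odc and 6 and 5 for Dohh, and 5 were called higher in TH2 cells labelled Dohh-/-. The myeloid sum was 21.4 to 44.9 CPM in WT and 86.3 to 353 CPM in labelled Treg libraries of the Odc table. In TH1 cells 2 were higher in either table (and 1 lower for Odc), and in TH2 cells labelled Odc-/- 1 was lower and none higher. Lyz2, a gene of myeloid cells, reached 4211 and 1205 CPM in the TH17 libraries labelled Dohh-/- of replicates 2 and 3, and 2855 and 1641 CPM in the Treg libraries of the same numbers. Replicate 1 had 67.0 and 56.2 CPM, still above the 15.3 to 18.4 and 7.78 to 11.8 CPM of WT libraries. The libraries farthest from their group means over all genes tested (root mean square of log2 CPM differences) were labelled ones: TH1 replicates 2 and 3 (0.66 and 0.65) and TH17 replicates 1 and 3 (0.58 and 0.63) of the Dohh table and TH1 replicate 1 of the Odc table (0.54). TH1 replicate 2 labelled Dohh-/- had the lowest Tcf7, Lef1, Il7r and S1pr1 of its group. WT replicates 4 of the Odc table (0.34 to 0.47) differed from the other WT libraries in several of the 9 genes, and values without such libraries are given below. Whether these markers were expressed by other cells, which negative selection is meant to remove, or by the CD4+ T cells was not tested. The part of any other cells in the results on the 9 genes was not tested either. In bulk RNA, fewer cells of a type cannot be told apart from less RNA per cell.

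The genes lie on 6 chromosomes of GRCm38: Tcf7 (ENSMUSG00000000782.15) at chr11:52252371-52283014, Lef1 (ENSMUSG00000027985.14) at chr3:131110471-131224356, Bach2 (ENSMUSG00000040270.16) at chr4:32238804-32586108, Klf2 (ENSMUSG00000055148.7) at chr8:72319033-72321656, Il7r (ENSMUSG00000003882.4) at chr15:9505788-9530176, S1pr1 (ENSMUSG00000045092.8) at chr3:115710433-115715072, Foxp1 (ENSMUSG00000030067.17) at chr6:98925338-99522721, Id3 (ENSMUSG00000007872.3) at chr4:136143497-136145755 and Foxo1 (ENSMUSG00000044167.6) at chr3:52268336-52353221. The Il7r position belongs to ENSMUSG00000003882.5 of GENCODE M21, while its counts carry the version given here. Counts cover the exons of each gene. Antisense genes overlap 13.7% of the exon length of Lef1, 5.40% of Bach2 and 7.78% of Foxo1, and genes on the same strand (Gm20696 and Gm49348) overlap 3.16% of Foxp1. The strand setting of the counting is not given in the sources used here, so reads in those stretches are uncertain.

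RefSeq promoter windows on GRCm38.p6 were found for 8 of the 9 genes, S1pr1 being the gene without an entry. Of the 4 genes that fell by more than 3 on the log2 scale in Treg libraries labelled Dohh-/- (below), the 250 bases before a RefSeq start are shown for the 3 with an entry, because these genes moved together there. Bach2 and Klf2 have 1 window each, and of the 4 windows of Lef1, which has several starts, the first is shown. This Lef1 window lies before the gene, within an exon of the antisense gene Gm43352. The Bach2 window lies in an intron of the longer annotated gene, before an inner start, and the Klf2 window ends just inside the annotated first exon. They are written 5′ to 3′ on the + strand, which is the strand of each of these genes, with matches to the letters CACCC, which KLF factors prefer, on either strand in capitals.
Lef1 chr3:131110047-131110296: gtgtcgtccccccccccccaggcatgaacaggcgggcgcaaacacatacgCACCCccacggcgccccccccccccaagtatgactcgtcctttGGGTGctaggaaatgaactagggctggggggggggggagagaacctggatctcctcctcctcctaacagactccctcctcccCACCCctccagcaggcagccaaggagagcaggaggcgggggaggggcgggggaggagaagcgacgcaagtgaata
Bach2 chr4:32417185-32417434: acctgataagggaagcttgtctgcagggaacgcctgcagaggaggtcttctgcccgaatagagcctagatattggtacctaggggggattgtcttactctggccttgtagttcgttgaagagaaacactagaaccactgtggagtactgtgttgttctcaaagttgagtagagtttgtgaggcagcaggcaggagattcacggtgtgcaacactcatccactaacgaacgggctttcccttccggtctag
Klf2 chr8:72318812-72319061: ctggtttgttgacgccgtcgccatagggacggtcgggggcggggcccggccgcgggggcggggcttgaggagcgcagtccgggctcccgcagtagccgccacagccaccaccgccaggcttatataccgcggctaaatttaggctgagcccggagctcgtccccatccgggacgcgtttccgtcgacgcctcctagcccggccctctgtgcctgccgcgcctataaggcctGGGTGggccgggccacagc
CACCC, or on the other strand its complement GGGTG, occurred 3 times in the Lef1 window shown (and 3, 2 and 1 times in the others of Lef1), once in that of Klf2 and not in that of Bach2, and 52.0% of 32851 RefSeq windows of the same 250 bases hold it. The FOXO letters TGTTTAC, which read GTAAACA on the other strand, were in 3.17% of these windows and in none of the windows of the 8 genes. CTTTG, the core letters of TCF and LEF factors, with CAAAG on the other strand, were in 48.6% of all windows, and in those of Lef1 and Bach2 shown here. A match describes letters in a window, and these letters may lie elsewhere in the same genes.

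**Figure D1:**
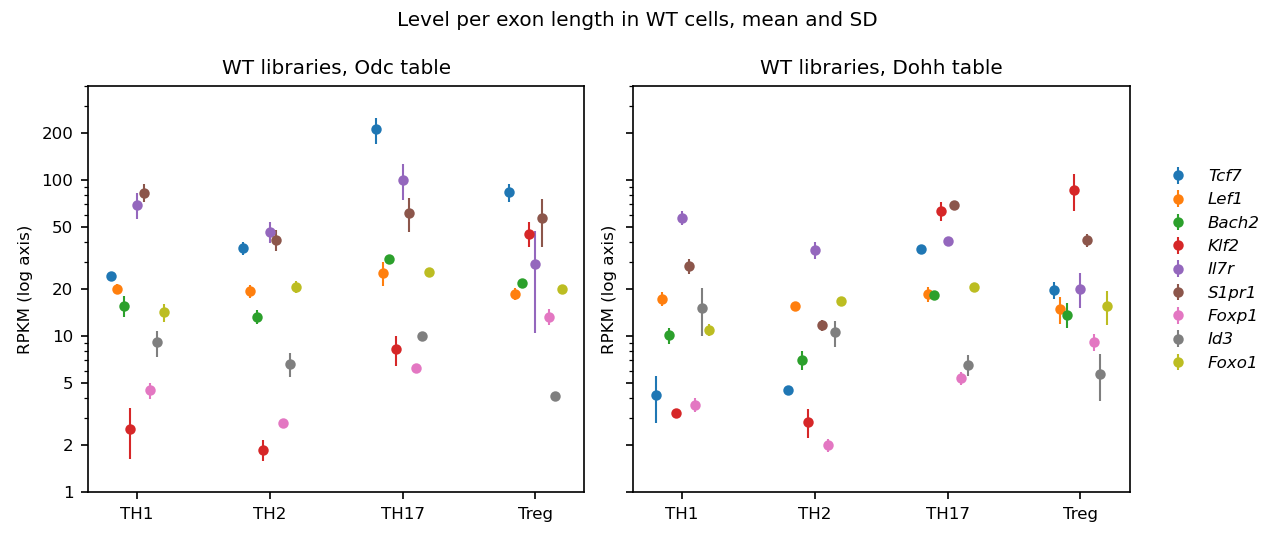
Mean level of each gene in WT libraries by subset, in RPKM (CPM per kilobase of exon) on a log axis, with bars of 1 SD over 4 libraries (Odc table, left) or 3 libraries (Dohh table, right). Klf2 was low in TH1 and TH2 cells and high in Treg cells of both tables, and Tcf7 was highest in TH17 cells.

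In WT cells, the 9 genes were distributed over the subsets in distinct ways. By mean level, Tcf7 was highest in TH17 cells, Klf2 and Foxp1 in Treg cells, and Il7r and Id3 were lowest in Treg cells, while Lef1 varied little. A test over the 4 WT groups (edgeR's quasi-likelihood F test with Benjamini-Hochberg adjustment over all genes tested, threshold 0.05) called all 9 genes in the Odc table, where 71.1% of all genes passed, and 8 in the Dohh table, where 40.1% passed. The gene that did not pass was Lef1 (adjusted p = 0.764). Without the libraries of replicate 1 or those of replicate 2, 5 passed in the Dohh table, and the share of all genes in those fits is not given here. Since the tables were counted and scaled separately, a level in the Odc table is not compared with one in the Dohh table.

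Tcf7 had 553 ± 106 CPM (SD, n = 4) in WT TH17 cells of the Odc table, 219 ± 29.6 CPM in Treg, 96.3 ± 9.63 CPM in TH2 and 63.8 ± 3.41 CPM in TH1 cells, and each step in this order passed the edgeR test (adjusted p at most 0.0232). The order was the same in the Dohh table, with 95.5 ± 2.88 CPM (SD, n = 3) in TH17 cells, 51.8 ± 6.58 CPM in Treg, 11.9 ± 0.602 CPM in TH2 and 11.0 ± 3.61 CPM in TH1 cells. There the edgeR test separated Treg from TH2 cells (adjusted p = 0.0149), but not TH17 from Treg cells (adjusted p = 0.467) or TH2 from TH1 cells (adjusted p = 0.944). TH17 cells thus had the highest mean of Tcf7 RNA in either table, separated from that of Treg cells in the Odc table alone. TH1 and TH2 cells had the lowest means.

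Klf2, which encodes the factor that drives the exit receptor S1pr1, had the widest range over the subsets. It measured 83.8 ± 15.4 CPM (SD, n = 4) in WT Treg cells of the Odc table, 15.3 ± 3.29 CPM in TH17, 4.70 ± 1.70 CPM in TH1 and 3.47 ± 0.547 CPM in TH2 cells, with TH1 and TH2 not separated by edgeR (adjusted p = 0.283). Treg cells of the Dohh table with 159 ± 41.8 CPM (SD, n = 3) and TH17 cells with 117 ± 15.7 CPM were not separated (adjusted p = 0.481), and TH1 and TH2 cells had 5.98 ± 0.266 and 5.24 ± 1.11 CPM. TH17 and Treg cultures thus held more Klf2 RNA than TH1 and TH2 cultures in either table. Both received TGF-β, among other differences between the cultures, and its part was not tested. In levels per exon length, WT Treg cells held 45.4 ± 8.32 RPKM (SD, n = 4) in the Odc table and 86.3 ± 22.6 RPKM (SD, n = 3) in the Dohh table, the highest of the 9 genes in WT Treg cells of the Dohh table.

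Foxp1, which encodes a forkhead factor that holds naive T cells quiescent, followed the order Treg, TH17, TH1, TH2 in both tables, with 183 ± 21.5 against 38.0 ± 2.04 CPM (SD, n = 4) in Treg and TH2 cells of the Odc table. Of the steps in that order, the edgeR test missed TH17 against TH1 cells in the Odc table (adjusted p = 0.0637), which passed with genotype and replicate number as a block (adjusted p = 4.12e-05). Bach2 and Foxo1 were highest in TH17 cells. Bach2 had 310.0 ± 15.6 CPM (SD, n = 4) there in the Odc table, more than the 219 ± 13.2 CPM of Treg cells (edgeR adjusted p = 0.00688), and 183 ± 5.00 CPM (SD, n = 3) in the Dohh table, not separated from Treg cells (adjusted p = 0.335). Foxo1 had 223 ± 13.0 CPM (SD, n = 4) and 179 ± 5.21 CPM (SD, n = 3) in TH17 cells, not separated from TH2 cells in either table (edgeR adjusted p = 0.0928 and 0.306). Its mean was lowest in TH1 cells, which in the Odc table were separated from Treg cells, the next subset (edgeR adjusted p = 0.00969). In the Dohh table TH1 cells were not separated from Treg or TH2 cells (edgeR adjusted p = 0.0669 and 0.0543).

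Il7r was lowest in Treg cells, with 134 ± 85.7 CPM (SD, n = 4) in the Odc table and 94.1 ± 23.8 CPM (SD, n = 3) in the Dohh table, not separated by edgeR from TH2 cells in either (adjusted p = 0.11 and 0.143). With genotype and replicate number as a block, Il7r in the Odc table was separated (edgeR adjusted p = 0.00878). Among the Treg libraries of the Odc table, WT replicate 4 had 24.1 CPM of Il7r and the other 3 at least 110.3 CPM. Id3 had 7.40 ± 0.212 CPM (SD, n = 4) in Treg cells of the Odc table, below the 11.9 ± 2.08 CPM of TH2 cells (adjusted p = 0.0012). Treg cells of the Dohh table with 10.3 ± 3.39 CPM of Id3 (SD, n = 3) were not separated from TH17 cells (edgeR adjusted p = 0.849). There TH1 cells had the highest mean, 27.2 ± 9.11 CPM, not separated from TH2 cells (edgeR adjusted p = 0.392). S1pr1 was lowest in TH2 cells, at 126 ± 19.5 CPM (SD, n = 4) in the Odc table, where the next subset, Treg, was not separated (edgeR adjusted p = 0.169), and at 35.8 ± 2.67 CPM (SD, n = 3) in the Dohh table, where the next subset, TH1, was (adjusted p = 0.0365). Lef1 ranged between 164 ± 14.2 CPM in Treg and 224 ± 40.0 CPM in TH17 cells of the Odc table (SD, n = 4).

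The next question was how each deletion altered these genes. In cells labelled Odc-/-, Bach2 and S1pr1 were called lower in TH1 cells, S1pr1, Il7r and Id3 in TH2 cells and Il7r in TH17 cells, and Bach2, Klf2, Il7r and S1pr1 were lower and Id3 higher in Treg cells. In cells labelled Dohh-/-, Tcf7, Lef1 and Bach2 were called lower in every subset, and Id3 was lower in TH1 and TH2 cells and higher in TH17 and Treg cells. A gene was called when it differed by more than 2-fold (1 on the log2 scale) between labelled and WT libraries of a subset with an adjusted p below 0.05 in edgeR's quasi-likelihood test. In the Odc table, 2 of the 9 genes were called lower in TH1 cells (all genes: 11.3% lower, 10.2% higher), 3 in TH2 (13.6% and 11.5%) and 1 in TH17 cells (7.21% and 8.35%), with no gene called higher. In Treg cells 4 were called lower and 1 higher (10.1% and 13.9%). In the Dohh table, 5 were called lower in TH1 cells (14.2% of all genes lower, 14.8% higher) and 5 in TH2 cells (11.6% and 14.3%), none higher. In TH17 cells 6 were lower and 1 higher (14.1% and 17.3%), and in Treg cells 5 were lower and 1 higher (15.2% and 17.5%). The median log2 fold change of the 9 genes was -0.26, -0.62, -0.71 and -0.99 in TH1, TH2, TH17 and Treg cells of the Odc table and -1.46, -1.29, -1.84 and -2.59 in the Dohh table, and that of all genes tested was at most 0.07 from 0. With 9 genes, the 1 called lower in TH17 cells of the Odc table is near the background share.

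Under a test against the 2-fold limit itself (edgeR's glmTreat), the calls that held in the Odc table were those of Klf2 and Id3 in Treg cells, and in the Dohh table those of Lef1, S1pr1 and Id3 in TH1, Lef1 in TH2 and Id3 and Foxo1 in TH17 cells were lost.

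The counts in some subsets rested on single libraries. Without WT replicate 4 the count in TH17 cells of the Odc table was 3, and without labelled replicate 1 it was 2. Without TH1 replicate 3 labelled Dohh-/- the count in TH1 cells of the Dohh table was 8, as Klf2, Il7r and Foxo1 gained a call. In TH1 cells of the Odc table it was 1 without WT replicate 1, WT replicate 2, labelled replicate 3 or labelled replicate 4, as Bach2 lost its call.

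**Figure D2:**
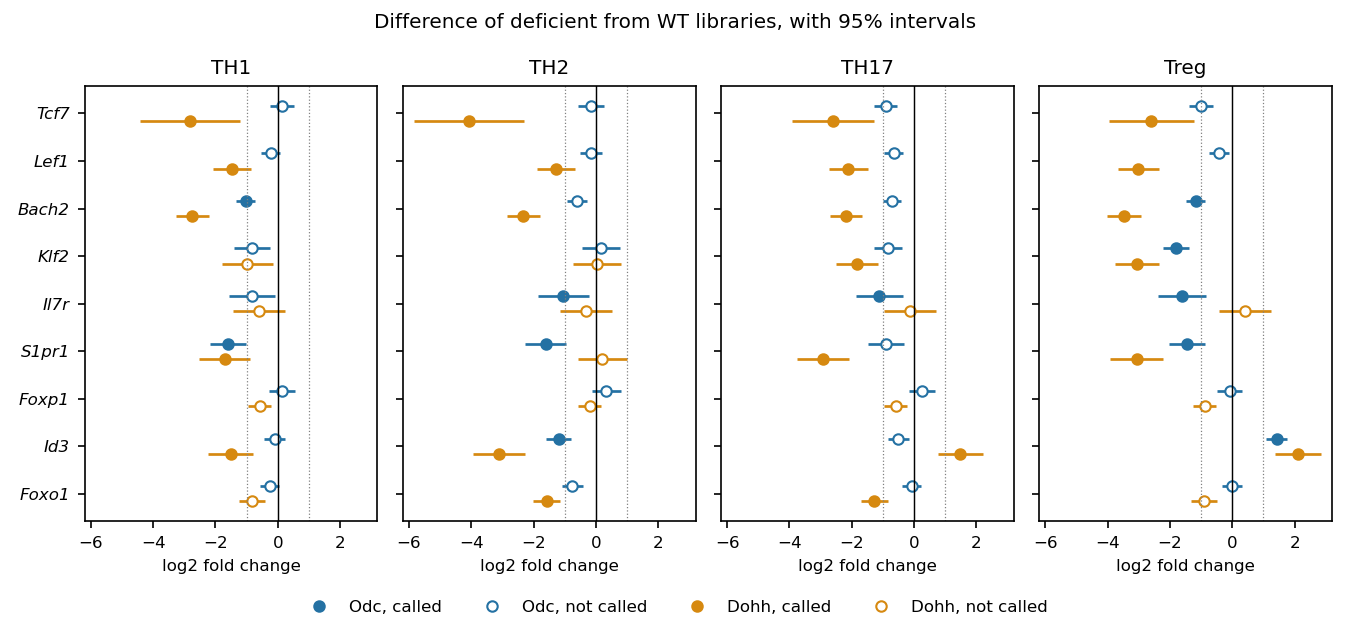
Log2 fold change of libraries labelled deficient against WT for each gene (rows) and subset (panels), with 95% intervals of the edgeR fit, in the Odc table (blue) and the Dohh table (orange). Filled points are called, and dotted lines mark a 2-fold difference. Bach2 was lower in all 8 comparisons, and Id3 was lower in TH2 and higher in Treg cells of both tables.

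Among these genes, Tcf7 showed the widest gap between the tables in TH1 and TH2 cells, but not in TH17 or Treg cells. In TH2 cells of the Dohh table, WT libraries had 12.6, 11.7 and 11.4 CPM and libraries labelled Dohh-/- 0.630, 1.12 and 0.318 CPM, the latter from 6, 11 and 3 counts. The groups did not overlap, and the log2 fold change was -4.08 ± 0.84 (SE, edgeR adjusted p = 0.000748). In TH1 cells the WT libraries had 9.03, 15.1 and 8.75 CPM and those labelled Dohh-/- 0.920, 0.158 and 3.31 CPM, a log2 fold change of -2.82 ± 0.77 (adjusted p = 0.00508), which became -4.14 without replicate 3, the highest of the labelled libraries, and -2.39 without replicate 2, the lowest. In TH17 cells, 95.3, 92.8 and 98.5 CPM in WT stood against 27.0, 17.6 and 1.51 CPM (-2.61 ± 0.63, adjusted p = 0.00209). Replicate 3 was far below the other two there, and the log2 fold change was -2.08 without it and -3.25 without replicate 1. Treg libraries went from 49.8, 46.4 and 59.1 CPM in WT to 14.1, 9.19 and 2.47 CPM in those labelled Dohh-/- (-2.59 ± 0.65, adjusted p = 0.00239), again with replicate 3 lowest (-2.20 without it and -3.14 without replicate 1). Thus no library labelled Dohh-/- reached the lowest WT library of its subset.

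Tcf7 was not called in any subset of the Odc table, but in TH17 and Treg cells it lay close to the 2-fold limit. TH17 cells came down from 616, 591, 611 and 395 CPM in WT to 302, 252, 331 and 289 CPM (-0.91 ± 0.19, adjusted p = 0.000298), and Treg cells from 226, 238, 235 and 175 CPM to 83.8, 129, 95.9 and 131 CPM (-0.99 ± 0.19, adjusted p = 6.12e-05). In both subsets the groups did not overlap. The Treg value was called in several other ways of processing: with RLE size factors (-1.06), upper-quartile scaling (-1.02), no low-count filter (-1.07), a fit of the 2 groups alone (-1.05) and DESeq2 (-1.06, adjusted p = 3.44e-07), and without WT replicate 4, labelled replicate 2 or labelled replicate 4 (down to -1.09). The TH17 value was called without WT replicate 4 (-1.05). In TH1 and TH2 cells the log2 fold changes were 0.13 (95% interval -0.26 to 0.52) and -0.17 (-0.59 to 0.25), and the groups overlapped. The effect of the label differed between the 4 subsets by edgeR's interaction test (adjusted p = 0.00263).

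Lef1, the relative of Tcf7, was called lower in all 4 subsets of the Dohh table and in none of the Odc table. In Treg cells, WT libraries of the Dohh table had 133, 105 and 156 CPM and those labelled Dohh-/- 19.6, 16.4 and 13.0 CPM, a log2 fold change of -3.01 ± 0.32 (edgeR adjusted p = 1.59e-07). In TH17 cells 175, 142 and 174 CPM stood against 55.1, 42.2 and 15.6 CPM (-2.11 ± 0.30, adjusted p = 1.04e-05). The TH1 and TH2 values were -1.46 ± 0.30 and -1.29 ± 0.29, and in none of the 4 subsets did a labelled library reach the WT range. The fall was unequal between the subsets (interaction, adjusted p = 0.0173), although the WT levels of Lef1 were not separated between them. Its largest difference in the Odc table was that in TH17 cells, from 164 to 249 CPM in WT to 107 to 194 CPM (-0.66 ± 0.15, adjusted p = 0.0012), below 2-fold.

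**Figure D3:**
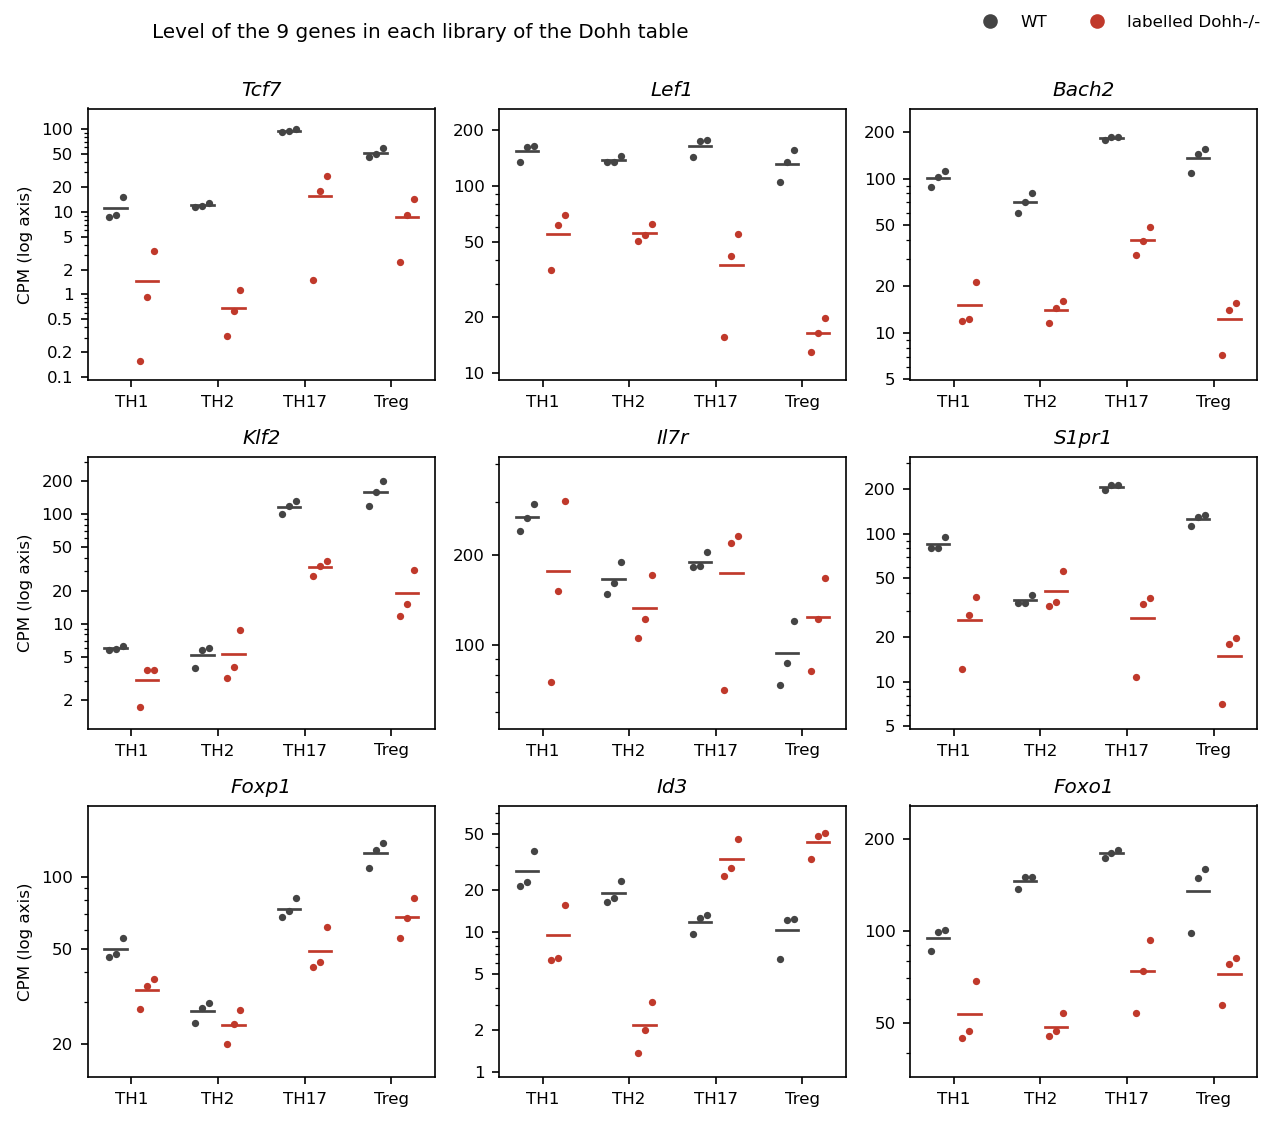
Level of each gene (panels) in the 24 libraries of the Dohh table by subset, in CPM on a log axis, WT in grey and libraries labelled Dohh-/- in red, with bars at the group means. Labelled libraries of Tcf7, Lef1, Bach2 and Foxo1 lay below all WT libraries of their subset, and Id3 was lower in TH1 and TH2 cells and higher in TH17 and Treg cells.

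Bach2 encodes a repressor of effector genes, and its labelled libraries lay below all WT libraries of the same subset in each of the 8 comparisons. In Treg cells of the Dohh table, WT libraries had 156, 109 and 145 CPM and labelled ones 14.1, 15.6 and 7.22 CPM (-3.47 ± 0.26, edgeR adjusted p = 1.9e-09). In TH1 cells 111, 103 and 88.3 CPM stood against 12.3, 11.8 and 21.2 CPM (-2.74 ± 0.26, adjusted p = 6.44e-08). The TH2 and TH17 values were -2.33 ± 0.25 and -2.19 ± 0.25, both called. The subsets differed in the size of the fall (interaction, adjusted p = 0.035), which was greatest in Treg cells.

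Bach2 fell by less in the Odc table, as tested below. Treg libraries went from 228, 212, 232 and 204 CPM in WT to 91.8, 117, 63.4 and 116 CPM (-1.17 ± 0.15, edgeR adjusted p = 1.94e-07), and TH1 libraries from 170.3, 180.4, 139.9 and 131 CPM to 90.5, 80.0, 68.1 and 65.9 CPM (-1.03 ± 0.15, adjusted p = 4.3e-06). Both were called, the TH1 value so close to 2-fold that the call was lost when any of 4 libraries was left out (WT replicate 1 or 2, or labelled replicate 3 or 4), with log2 fold changes as small as -0.95. The TH2 and TH17 differences of -0.62 ± 0.16 (adjusted p = 0.00152) and -0.71 ± 0.14 (adjusted p = 0.000273) were under 2-fold.

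Foxo1, which encodes a forkhead factor at the head of the quiescence genes, was called lower in TH2 and TH17 cells of the Dohh table. TH2 libraries had 149.6, 137 and 149.9 CPM in WT and 53.9, 45.3 and 47.1 CPM when labelled Dohh-/- (-1.58 ± 0.21, edgeR adjusted p = 4.88e-06). TH17 libraries had 184, 179.5 and 173 CPM and 93.1, 74.1 and 54.1 CPM (-1.28 ± 0.20, edgeR adjusted p = 3.47e-05). Without labelled replicates 2 and 3, those with high Lyz2, the TH17 value was -0.94, under 2-fold. It rests on the lone labelled replicate 1, the highest of the labelled TH17 libraries. In TH1 and Treg cells labelled libraries were also below all WT libraries, with log2 fold changes of -0.83 ± 0.20 and -0.90 ± 0.20, short of 2-fold. The TH1 value was called without labelled replicate 3 (-1.04), and the Treg value without WT replicate 2 (-1.14) or labelled replicate 2 (-1.05). Foxo1 was not called in the Odc table, and the TH2 value of -0.76 ± 0.17 (adjusted p = 0.000429) was its only difference without overlap. The interaction test gave an adjusted p of 0.0418 there.

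Among the genes that FOXO1 is known to drive, Klf2 was called lower in the subsets where WT cells held most of it. In Treg cells of the Dohh table, WT libraries had 118, 159 and 202 CPM and labelled ones 15.0, 30.7 and 11.9 CPM (-3.05 ± 0.34, edgeR adjusted p = 3.35e-07), and in TH17 cells 100.3, 119 and 132 CPM stood against 27.2, 33.9 and 37.0 CPM (-1.84 ± 0.32, adjusted p = 9.65e-05). In the Odc table, Treg cells went from 66.3, 97.4, 75.6 and 95.9 CPM in WT to 18.0, 27.4, 22.4 and 27.2 CPM (-1.82 ± 0.20, adjusted p = 4.21e-08). None of these 3 pairs of groups overlapped. In TH1 cells it was -0.98 ± 0.40 in the Dohh table (adjusted p = 0.047) and -0.82 ± 0.29 in the Odc table (adjusted p = 0.0161, with overlap), and in TH17 cells labelled Odc-/- -0.83 ± 0.22 (adjusted p = 0.0036), each under 2-fold. These TH1 values were near the limit. That of the Odc table was called without WT replicate 4 (-1.03) or labelled replicate 1 (-1.11). That of the Dohh table was called with upper-quartile scaling (-1.06), with replicate number as a block (-1.01) and without labelled replicate 3 (-1.17), and was -0.64 without labelled replicate 1. In TH2 cells, where WT levels were 3.47 CPM in the Odc table and 5.24 CPM in the Dohh table on average, log2 fold changes were 0.16 (95% interval -0.45 to 0.77) and 0.03 (-0.74 to 0.81). The effect differed between subsets in either table (interaction, adjusted p = 0.000768 for Odc and 0.000817 for Dohh).

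S1pr1, the receptor through which T cells follow sphingosine 1-phosphate out of lymph nodes, was called lower in 3 subsets of each table. In the Odc table, TH1 libraries went from 237, 295, 218 and 262 CPM in WT to 121, 68.4, 80.1 and 67.9 CPM (-1.58 ± 0.28, edgeR adjusted p = 5.71e-05). TH2 libraries went from 130.0, 109, 113 and 151 CPM to 26.8, 56.1 and 40.6 CPM (-1.61 ± 0.32, adjusted p = 0.000138), and neither pair of groups overlapped. In Treg cells, 211, 169, 219.8 and 91.5 CPM stood against 99.0, 45.3, 48.8 and 59.3 CPM (-1.45 ± 0.28, adjusted p = 0.000104), with WT replicate 4 inside the labelled range. In TH17 cells the value was -0.89 ± 0.28 (adjusted p = 0.0107), and it was called without WT replicate 4 (-1.06) or labelled replicate 1 (-1.14). The effect of the Odc-/- label on S1pr1 did not differ between subsets by the interaction test (adjusted p = 0.373).

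By the same test the subsets did differ in the Dohh table (adjusted p = 0.000595). S1pr1 went from 199, 215 and 215 CPM in WT to 33.5, 37.0 and 10.7 CPM in TH17 cells (-2.94 ± 0.40, edgeR adjusted p = 7.31e-06) and from 134, 113 and 129.9 CPM to 19.7, 18.1 and 7.11 CPM in Treg cells (-3.07 ± 0.41, adjusted p = 3.86e-06). TH1 cells gave -1.71 ± 0.39 (adjusted p = 0.00114). In TH2 cells, the subset with the least S1pr1 in WT, the groups overlapped at 38.9, 34.2 and 34.3 CPM in WT and 56.4, 32.8 and 34.6 CPM when labelled Dohh-/-, with a log2 fold change of 0.21 and a 95% interval from -0.58 to 0.99. TH2 cells are thus the culture in which S1pr1 was called lower with the Odc-/- label alone, and the 2 effects differed by -1.80 ± 0.51 (Odc minus Dohh, SE, adjusted p = 0.0114) in an edgeR fit of both tables.

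**Figure D4:**
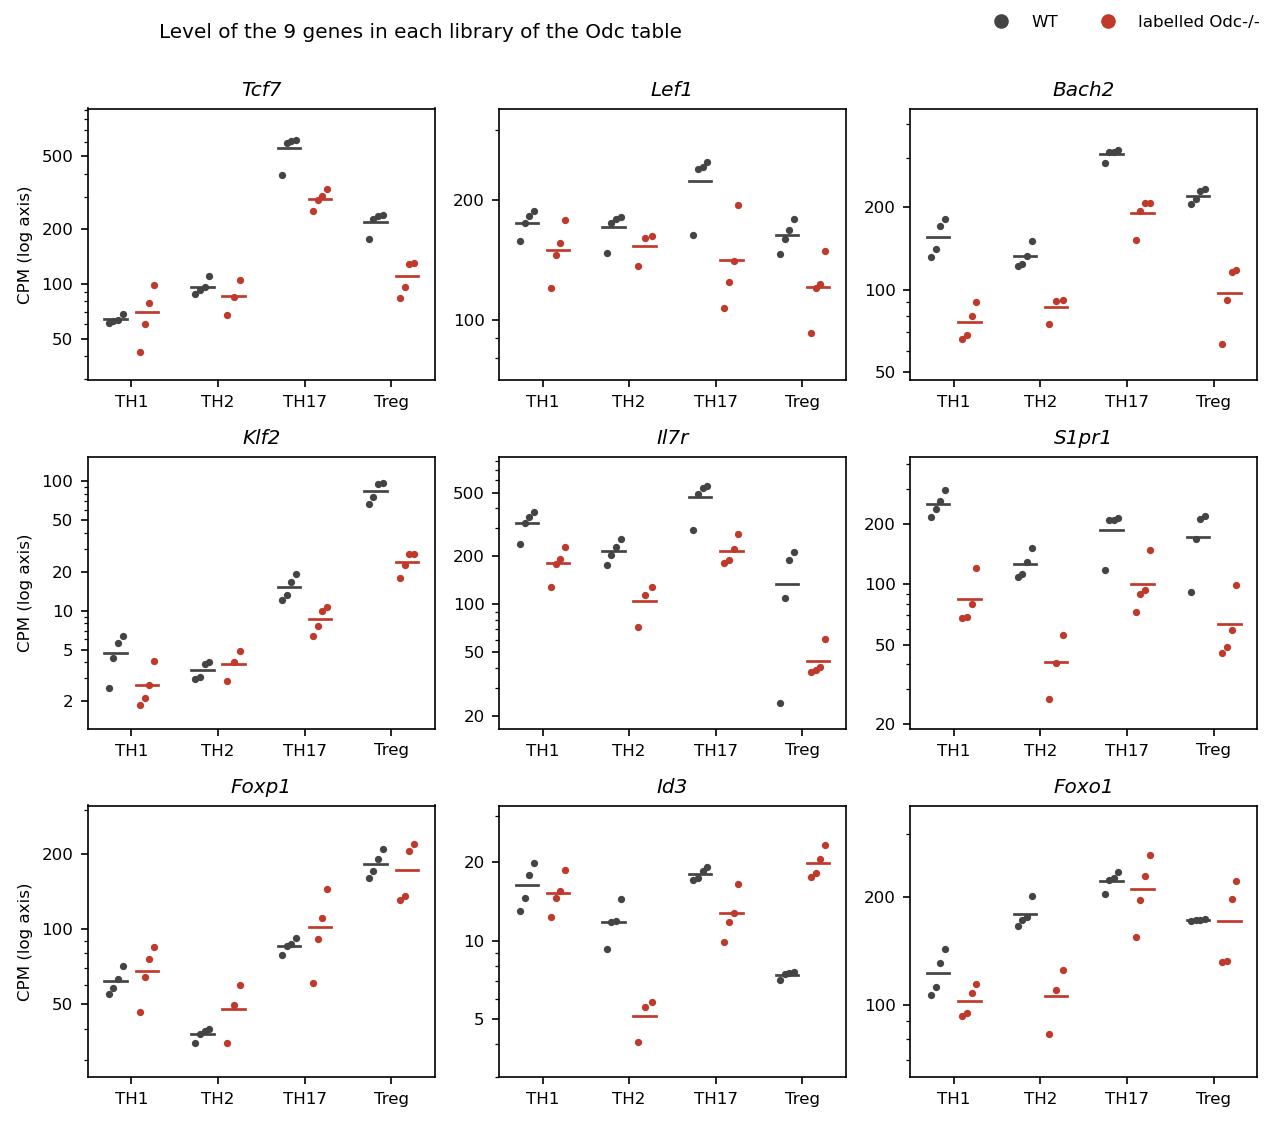
Level of each gene (panels) in the 31 libraries of the Odc table by subset, in CPM on a log axis, WT in grey and libraries labelled Odc-/- in red, with bars at the group means. Bach2 was lower in all 4 subsets without overlap, Klf2 fell in Treg cells, and a WT library of Treg cells (replicate 4) had less Il7r than all labelled ones.

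Il7r was called lower in TH2, TH17 and Treg cells of the Odc table. TH17 libraries had 554, 491, 538 and 294 CPM in WT and 275, 182, 222 and 191 CPM when labelled Odc-/- (-1.11 ± 0.36, edgeR adjusted p = 0.0135). TH2 libraries had 256, 204, 229 and 178 CPM and 71.6, 129 and 114 CPM (-1.05 ± 0.40, adjusted p = 0.0256), and Treg libraries 189.7, 110.3, 213 and 24.1 CPM and 60.7, 38.4, 40.1 and 37.8 CPM (-1.60 ± 0.37, adjusted p = 0.00069). The TH2 and TH17 groups did not overlap, whereas WT replicate 4 of the Treg group lay below the 4 labelled libraries. Without that library the Treg difference was -1.95, and without WT replicate 3 it was -1.29. The Treg call held whichever single library was left out. The TH2 call was lost without WT replicate 1 or labelled replicate 2, in the latter case with a log2 fold change of -0.84 (adjusted p = 0.125). It was also lost with no low-count filter (adjusted p = 0.0534) and with replicate number as a block (-0.92). In TH1 cells Il7r gave -0.83 ± 0.36 (adjusted p = 0.0495), below 2-fold.

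With all libraries, Il7r was called in no subset of the Dohh table, and its log2 fold changes ran from -0.59 in TH1 cells (95% interval -1.42 to 0.24) over -0.32 in TH2 and -0.12 in TH17 to 0.40 in Treg cells (-0.44 to 1.23). In TH1 cells this rested on single libraries, since Il7r gave -1.22 and was called without labelled replicate 3, and gave -0.24 without labelled replicate 2. Libraries labelled Dohh-/- were widely spread, for example 219.5, 231 and 71.0 CPM in TH17 cells against 183, 204 and 183 CPM in WT. A test of the difference between the Odc and Dohh effects on Il7r passed in Treg cells (-2.05 ± 0.57, edgeR adjusted p = 0.00624) and not in TH1, TH2 or TH17 cells (adjusted p = 0.835, 0.459 and 0.19). The intervals of those 3 differences reached from -1.39 to 0.88, from -1.90 to 0.47 and from -2.18 to 0.09, each extending past a 2-fold difference on the lower side.

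Foxp1 was called in none of the 8 comparisons with all libraries. In the Odc table its log2 fold changes lay between -0.08 and 0.34, with overlap in every subset. In the Dohh table it was lower in TH1, TH17 and Treg cells without overlap, by less than 2-fold: -0.58 ± 0.18 (edgeR adjusted p = 0.0107), -0.59 ± 0.18 (adjusted p = 0.00842) and -0.89 ± 0.18 (adjusted p = 0.000257). Treg libraries had 129.7, 109.7 and 139 CPM in WT and 55.6, 67.4 and 81.4 CPM when labelled Dohh-/-. The Treg value was called without WT replicate 2 (-1.03) or labelled replicate 3 (-1.09). Without replicates 2 and 3 labelled Dohh-/-, those with high Lyz2, it was -1.22. That value rests on the lone labelled replicate 1, the lowest of the labelled Treg libraries.

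Id3, whose product binds E proteins and keeps them from DNA, was the gene of the group that was called in opposite directions between subsets. In TH2 cells of the Dohh table it went from 17.5, 23.1 and 16.3 CPM in WT to 1.99, 3.16 and 1.38 CPM (-3.11 ± 0.40, edgeR adjusted p = 3.86e-06), and in TH1 cells from 21.3, 37.7 and 22.5 CPM to 6.34, 6.47 and 15.6 CPM (-1.51 ± 0.35, adjusted p = 0.00137). In Treg cells it rose from 6.40, 12.2 and 12.4 CPM to 32.8, 51.0 and 48.0 CPM (2.10 ± 0.35, adjusted p = 4.86e-05). TH17 cells also rose, from 13.2, 9.66 and 12.6 CPM to 25.2, 28.4 and 45.6 CPM (1.48 ± 0.35, adjusted p = 0.0014). No pair of groups overlapped in these 4 subsets. With labelled replicates 2 and 3 of the TH17 and Treg groups left out, the TH17 value was 1.10. It rests on the lone labelled replicate 1, the lowest of the labelled TH17 libraries.

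The Odc table repeated the split between TH2 and Treg cells. TH2 libraries had 9.30, 14.4, 11.9 and 11.8 CPM in WT and 5.83, 4.08 and 5.56 CPM when labelled Odc-/- (-1.20 ± 0.19, edgeR adjusted p = 1.1e-05). Treg libraries had 7.09, 7.44, 7.49 and 7.57 CPM in WT and 17.6, 20.6, 23.3 and 18.2 CPM when labelled (1.43 ± 0.16, adjusted p = 5.93e-08), so that Treg cells had the lowest mean level of Id3 among WT groups and the highest among labelled groups (19.9 ± 2.59 CPM, SD, against 15.3 ± 2.62 CPM in TH1 cells, the next). TH17 libraries differed by -0.50 ± 0.16 (adjusted p = 0.0116), within 2-fold, and in TH1 cells the groups overlapped (-0.10, 95% interval -0.42 to 0.23). The interaction test gave adjusted p = 7.54e-08 for Odc and 1.44e-06 for Dohh, the smallest of the 9 genes in each. The summed gamma-delta T cell markers were higher in labelled libraries of every subset, those in which Id3 fell included (22.8 to 39.3 CPM in WT and 366 to 502 CPM in labelled TH2 libraries of the Dohh table), and their part in the Id3 values was not tested.

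In all, the interaction test passed for 4 of the 9 genes in the Odc table (Tcf7, Id3, Foxo1 and Klf2), where 34.8% of all genes passed, and for 5 in the Dohh table (Id3, Lef1, Bach2, S1pr1 and Klf2), where 17.9% passed. The Odc count was thus close to the background share. With genotype and replicate number as a block it was 5, as Bach2 gained a pass (edgeR adjusted p = 0.00513). The share of all genes with that block is not given here. Without a block, the Odc count was 2 without the libraries of replicate 2. The Dohh count was 3 without those of replicate 1 or of replicate 2. The shares of all genes in these fits are not given here.

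To compare the 2 deletions, the difference between labelled and WT libraries in the Odc table was tested against that in the Dohh table in a single edgeR fit of all 55 libraries. The table and the deletion cannot be told apart in this test, since each deletion was measured in its own table. In TH1 cells the effects differed for 4 genes (18.5% of all genes), in TH2 for 6 (15.7%), in TH17 for 7 (21.4%) and in Treg cells for 8 (26.2%). Tcf7, Lef1 and Bach2 differed in every subset, each time with the lower value in the Dohh table. For Tcf7 the difference (Odc minus Dohh) was 2.91 ± 0.67 (SE) in TH1, 3.92 ± 0.75 in TH2, 1.63 ± 0.53 in TH17 and 1.55 ± 0.55 in Treg cells. Bach2 gave 1.69 ± 0.27, 1.72 ± 0.28, 1.42 ± 0.27 and 2.26 ± 0.27, and Lef1 1.21 ± 0.32, 1.15 ± 0.33, 1.40 ± 0.32 and 2.53 ± 0.33 in the same order. Id3 differed in opposite directions, by 1.93 ± 0.41 in TH2 cells (adjusted p = 0.000953) and by -2.03 ± 0.35 in TH17 cells (adjusted p = 4.43e-05), and in Treg cells, where it rose in both tables, the difference of -0.71 ± 0.36 did not pass (adjusted p = 0.142, 95% interval -1.43 to 0.01). Klf2 differed in Treg cells (1.20 ± 0.37, adjusted p = 0.012), with an interval in TH1 cells from -0.87 to 1.14. In TH17 cells the Klf2 difference of 0.96 ± 0.38 did not pass (edgeR adjusted p = 0.0667). With replicate number as a block within the table it passed (edgeR adjusted p = 0.0311). Foxp1 in TH1 cells also passed with that block (edgeR adjusted p = 0.0302, and 0.0813 without it). That block gives same-numbered WT and labelled libraries a shared effect, although the numbers did not pair them (below). Leaving out all libraries of replicate 2 lowered the count in TH1 cells to 1 and that in TH2 cells to 3. Leaving out replicate 1, 2 or 4 lowered that in Treg cells to 5. The shares of all genes in these fits are not given here.

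Across the 16 group means of log2 CPM, centred within each table, several of the 9 genes ran together. The highest Pearson correlations within the group were those of Tcf7 with Foxo1 (r = 0.89), Klf2 with Foxp1 (r = 0.87), Tcf7 with Bach2 (r = 0.86) and Bach2 with Foxo1 (r = 0.86), while Il7r and Id3 had none above 0.42 with another of the 9. Among the 12924 genes tested in both tables, those most like Tcf7 were Git2 (r = 0.94) and Trbv30 (0.94), for Lef1 Gm15417 (0.95) and Fbf1 (0.94), for Bach2 A630023P12Rik (0.97) and Ift140 (0.97), and for Klf2 Stk38 (0.96) and Tbc1d4 (0.96). Il7r was closest to Gmfg (0.93) and Efemp2 (0.92), S1pr1 to Pced1b (0.93) and Fam120b (0.93), Foxp1 to Ubash3b (0.97) and Pkhd1l1 (0.96), and Foxo1 to Zfp866 (0.94) and Sgpp1 (0.93). Id3 had no close match (Neurl1b 0.81, Cfap126 0.78). The 16 points share libraries and scaling between genes, and these values are a description.

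Other genes of the same biology were taken from 7 lists chosen for their function, and some genes are in more than 1 list. Of 14 quiescence genes, 7, 7, 6 and 6 were called lower in TH1, TH2, TH17 and Treg cells of the Odc table and 4, 4, 7 and 11 in the Dohh table, and at most 2 higher in any comparison. The background shares are those given above for each comparison. Pik3ip1, which encodes an inhibitor of PI3K, was called lower in all 8 comparisons, with log2 fold changes from -3.50 in TH2 to -1.62 in TH17 cells, both in the Odc table. Cdkn1b, the cell cycle inhibitor p27, was called lower in 7 (from -1.93 in TH2 cells labelled Odc-/- to -1.04 in TH17 cells labelled Dohh-/-). Foxo4, a relative of Foxo1, was called lower in 6, and the antiproliferative gene Tob1 in 5. Slfn2 of this list went the other way, called higher in 4 comparisons and lower in 0. The list's median log2 fold change ran from -0.98 to -0.93 over the 4 subsets for Odc, and from -1.53 (Treg) to -0.57 (TH1) for Dohh.

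Of 10 genes of lymph node homing and egress, 2 to 4 were called lower in every comparison and 0 to 3 higher. Ccr7, the receptor that guides T cells into lymph nodes, was called lower in 6, with -2.98 in Treg cells labelled Dohh-/-. Spns2, a transporter of sphingosine 1-phosphate, was called higher in 6 comparisons, for example in Treg cells of the Odc table, where WT libraries had 0 to 2 counts and those labelled Odc-/- 12.3 to 18.9 CPM. S1pr4, a relative of S1pr1, was called lower in all subsets of the Odc table, each time within -1.07 and -1.01, and in TH17 cells of the Dohh table.

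Among 10 genes of IL-7 receptor signalling and survival, of which 10 were tested for Odc and 9 for Dohh, 1 to 3 were called lower for Odc and 3 to 5 for Dohh. Jak3, the kinase bound to the shared cytokine receptor chain, was called lower in 7 comparisons, and Stat5b, which carries the signal to the nucleus, in 6. Bcl2l11, the death gene BIM, was called lower in 4, with -2.69 in TH17 cells labelled Odc-/-, and Stat5a in 3. A gene of this list was called higher in Treg cells labelled Dohh-/- alone.

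Of 10 other transcription factors of naive and memory cells, 1 to 3 were called lower for Odc and 2 to 5 for Dohh, and 1 or 2 higher. Ets1, a factor of naive T cells, was called lower in all 8 comparisons within a narrow range (-1.55 to -1.16). Eomes, a factor of memory and cytotoxic T cells, was called higher in all 8, from 1.97 in TH1 to 4.44 in TH17 cells labelled Dohh-/-. Bcl6 was called higher in TH2 cells labelled Odc-/- (1.74) and TH1 cells labelled Dohh-/- (1.62) and lower in 5 others. Satb1, a genome organiser of T cells, was called lower in 4.

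Relatives of the 9 genes by sequence family numbered 20, of which 15 were tested for Odc and 16 for Dohh. From 3 to 7 were called lower and 1 or 2 higher. Tcf7l1 was called lower in 5 comparisons, and Klf3 was called higher in TH1 and TH2 cells labelled Odc-/- (1.51 and 1.26) and lower in 4 others, down to -3.71 in Treg cells labelled Dohh-/-.

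Effector factors that oppose this group were 9. In TH1 cells labelled Odc-/- none was called, while in each other comparison 1 to 4 were called higher and 0 to 2 lower. Tbx21, which encodes the TH1 factor T-bet, was called higher in 7 comparisons, the exception being TH1 cells labelled Odc-/- (0.41), and reached 4.61 in TH17 cells labelled Dohh-/-. Zeb2 was called higher in 4, and Hif1a and Irf4 were called lower in 6 and 5. Of 11 surface markers, 2 to 5 were called lower and 1 to 3 higher in each comparison. Ly6c2 was called higher in all 8 (up to 6.77 in Treg cells labelled Dohh-/-) and its neighbour in sequence Ly6c1 lower in 6 (down to -4.59 in TH1 cells). These 2 genes are close copies, so reads could be split between them. Igfbp4 and Cd28, the costimulatory receptor, were called lower in 6 comparisons each.

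**Figure D5:**
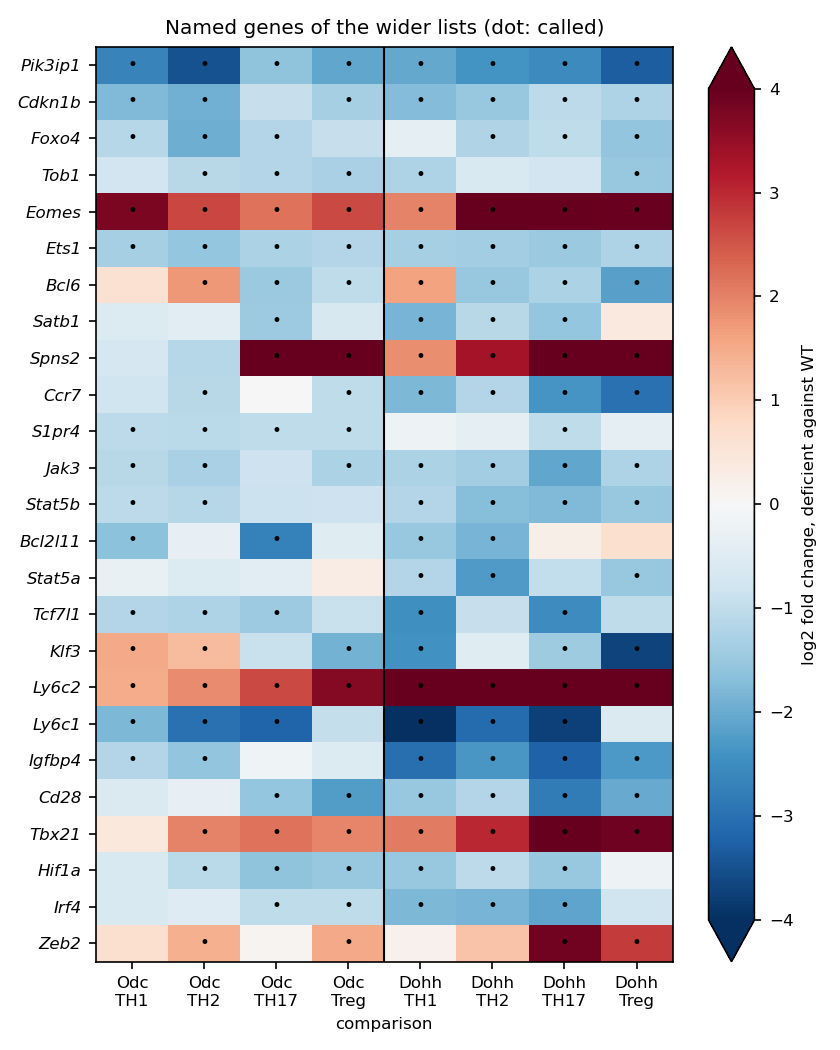
Log2 fold change of libraries labelled deficient against WT (color, limited to 4 in either direction) for named genes of the 7 wider lists (rows) in the 8 comparisons (columns, Odc table left of the line). Dots mark called genes. Pik3ip1 and Ets1 were lower and Eomes and Ly6c2 higher in every column.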

How the data were processed

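The authors sequenced stranded mRNA libraries on an Illumina HiSeq, mapped them with STAR to mm10 and deposited whole-number counts per gene from featureCounts, in a table per deletion. DeepTools and DESeq2 are also named in the submitters' processing notes, with no versions, and the annotation release is not given in the sources used here. The 55 columns were matched to sample labels by name, and 1 of the 56 labelled samples had no column used here. The count tables were analysed in R 4.3.3 with edgeR 4.0.16: TMM scaling, its default filter on low counts over the 8 groups of a table (13839 genes tested in the Odc table, 13897 in the Dohh table), robust quasi-likelihood fits and Benjamini-Hochberg adjustment over all genes tested. Interaction and WT tests used the same fits, and a joint fit of 14850 genes compared the deletions. CPM are counts scaled to a library of 1000000 after TMM. RPKM divide CPM by exon length (GENCODE M21). The standard error is the log2 fold change divided by the square root of F. Nothing in the labels says how separate the replicates were, so p-values measure the spread between these samples.

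The 9 genes and the lists were chosen with earlier results of these data known. From each wider list up to 4 genes were named, those called in the same direction in more comparisons than the other genes of the list (ties by the mean absolute log2 fold change), and for each of the 9 the 2 genes with the most similar pattern. Alternatives were other scalings (size factors, upper quartile), DESeq2 1.42.0, filters (none, mean count of 50), glmTreat, a replicate block, fits of 2 groups and leaving out libraries. Leaving out WT replicates 4 of the Odc table, or labelled replicates 2 and 3 of TH17 and Treg in the Dohh table, was chosen after seeing the data. The fit was tested on simulated data, and the outcome of that test is not reported here. Intervals and floors cover counting error and the spread between these libraries only. The values of 1 gene of the homing list are not reported here.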

Additional observations from a re-analysis of the deposited data

Results flagged for a closer look

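In groups of 4 libraries, the highest or lowest library was tested for a gap to its neighbour above Dixon's 95% critical value. Of the 63 groups tested, 4 passed, and chance gives about 1 in 20. In 3 of them the library was WT replicate 4 of TH17 cells in the Odc table. It had 395 CPM of Tcf7 against 591 to 616 CPM in the other WT libraries, 164 CPM of Lef1 against 239.8 to 249 CPM, and 118 CPM of S1pr1 against 209 to 216 CPM. In Treg cells labelled Odc-/-, replicate 1 had 60.7 CPM of Il7r, and the other 3 had 37.8 to 40.1 CPM.

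The effect of the label differed between subsets by edgeR's interaction test for 9 gene and table pairs. In the Odc table these were Id3 (adjusted p = 7.54e-08), Klf2 (0.000768), Tcf7 (0.00263) and Foxo1 (0.0418). In the Dohh table they were Id3 (edgeR adjusted p = 1.44e-06), S1pr1 (0.000595), Klf2 (0.000817), Lef1 (0.0173) and Bach2 (0.035).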

How the results depend on the processing

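RLE size factors, upper-quartile scaling and DESeq2 moved the 72 log2 fold changes (9 genes, 8 comparisons) by -0.08 to 0.04 and changed the sign of 0. Without the 2-fold condition (adjusted p below 0.05 alone, edgeR), 4, 5 and 7 genes were called in TH1, TH2 and TH17 cells of the Odc table and 8 in TH1 cells of the Dohh table, where 56.8%, 59.2%, 47.8% and 50% of all genes passed. With glmTreat, which tests against a 2-fold change, 0, 0, 0 and 2 were called in TH1, TH2, TH17 and Treg cells of the Odc table and 2, 4, 5 and 6 in those of the Dohh table (of all genes, 4.06% to 10.9% and 10.5% to 17.8%). At an unadjusted p under 0.05, glmTreat called 1, 1 and 0 in TH1, TH2 and TH17 cells of the Odc table, and DESeq2 at its adjusted p called 2, 3 and 1. Leaving out 1 library at a time gave 1 to 3 calls in TH1 and 1 to 3 in TH17 cells of the Odc table and 5 to 8 in TH1 cells of the Dohh table. When all libraries of a replicate number were left out, interaction calls ranged from 2 to 4 (Odc) and 3 to 7 (Dohh). WT subset calls in the Dohh table then ranged from 5 to 8. Genes with differing Odc and Dohh effects numbered 1 to 5 in TH1, 3 to 5 in TH2 and 5 to 6 in Treg cells. With all libraries, the interaction counts were 4 and 5, the WT count 8 and the counts of differing effects 4, 6 and 8. The shares of all genes in the fits with libraries left out are not given here. Without WT replicates 4, 3 genes were called in TH17 cells of the Odc table. Without labelled replicates 2 and 3 of TH17 and Treg cells, which leaves a lone library assumed to vary like the other groups, 3 had an interaction in the Dohh table.

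Values near 0 changed sign when a library was left out: in the Odc table Tcf7 in TH1 (-0.082 to 0.29), Id3 in TH1 (-0.21 to 0.0076, and 0.0070 without WT replicates 4), Klf2 in TH2 (-0.027 to 0.32), Foxo1 in TH17 (-0.20 to 0.043) and in Treg (-0.16 to 0.092), and Foxp1 in Treg cells (-0.22 to 0.029), and in the Dohh table Klf2 in TH2 (-0.54 to 0.30), S1pr1 in TH2 (-0.12 to 0.34) and Il7r in TH17 cells (-0.37 to 0.27, and 0.22 without labelled replicates 2 and 3). None of these was called. The cause was not tested.

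With replicate number as a block within the table, 70 of the 72 values kept their side of the threshold, the others being Il7r in TH2 cells labelled Odc-/- (-0.92) and Klf2 in TH1 cells labelled Dohh-/- (-1.01), and the effects of the 2 deletions differed for 5, 6, 8 and 8 genes in TH1, TH2, TH17 and Treg cells. Same-numbered WT and labelled libraries of a subset deviated together with r from -0.09 to 0.20 (Odc) and -0.03 to 0.14 (Dohh), so the numbers do not pair them. Same-numbered libraries of one genotype in different subsets did so more, with a median r of 0.28 over 45 pairs (0.03 to 0.58, Odc) and 0.16 over 36 pairs (-0.27 to 0.64, Dohh), against -0.11 and -0.10 for other numbers, a hint from the data and not the design. With genotype and replicate number as a block, the interaction passed for 5 genes in each table, with Bach2 gained for Odc (adjusted p = 0.00513, edgeR). The WT test over 4 subsets passed for 9 and 8 genes. The shares of all genes with either block are not given here. Of 108 WT pairs 7 changed and all 7 gained a pass, Foxp1 and Il7r in the Odc table included. Levels of a few counts, as for Tcf7 in TH1 and TH2 cells labelled Dohh-/-, limit those fold changes.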
